A study of Mus musculus with 8 samples.

Results

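Lamina associated domains (LADs) are stretches of chromatin that lie against the nuclear lamina, the filament meshwork under the inner nuclear membrane. The regions described here entered LADs when 3T3-L1 cells became adipocytes, lay mostly outside LADs in adipocytes with Tmem120a knockdown, and lay mostly inside LADs when Tmem120a and its paralog Tmem120b were knocked down together. Of the 1808 recruited regions, which are stretches in LADs of adipocytes and not of preadipocytes, 214 met this rule (11.8%). They had less than 50% of their length in LADs of the Tmem120a knockdown list and at least 50% in LADs of the double knockdown list. They summed to 9.48 Mb on 20 chromosomes. The regions were thus chosen by their coverage in these 2 lists, and that coverage is given as a description and was not tested.

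LaminB1-DamID was used to map LADs in 3T3-L1, an established mouse fibroblast line that forms adipocytes in culture. In this assay lamin B1, a lamina protein, is fused to the bacterial methylase Dam, which methylates adenine in GATC, and free Dam in parallel cells controls for how open the DNA is. There were 4 conditions: untreated preadipocytes at day 0, adipocytes carrying a control non-target shRNA, adipocytes carrying Tmem120a shRNA, and adipocytes carrying Tmem120a/b shRNA, the last 3 at day 9 after induction with insulin, dexamethasone, IBMX and rosiglitazone. All cells were transduced with lentivirus for Dam or LaminB1-Dam, at day 6 in the adipocytes, and the shRNAs were held in stable lines. The preadipocytes thus differed from the control adipocytes in the shRNA as well as in differentiation. Each condition had 1 LaminB1-Dam and 1 Dam library, and 1 list of LAD positions was made from the pair. There was no replicate, so differences between lists cannot be set against a spread. The lists give no read depth and no LAD strength, and in such bulk cells fewer cells with a contact and a weaker contact in each cell cannot be told apart. The lists carry no expression, so the cell type cannot be checked by marker levels. None of the adipocyte markers Pparg, Cebpa, Fabp4, Adipoq, Lpl, Plin1 and Cidec lay in a LAD in any list, nor did Tmem120a or Tmem120b. The preadipocyte markers Dlk1, Thy1 and Cd34 did not either, so position in LADs does not tell the cell types apart by these genes. LADs numbered 3914 for preadipocytes, 2542 for adipocytes, 5723 with Tmem120a knockdown and 6971 with double knockdown. Their median lengths were 83.2, 103.1, 59.1 and 60.7 kb in the same order.

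DNA in LADs is mostly poor in genes and rarely transcribed, and when a cell differentiates some loci move to or from the lamina. Nuclear envelope transmembrane proteins, among them Tmem120a and Tmem120b, can help to hold particular loci at the envelope in a given tissue. Tmem120a and Tmem120b are paralogs expressed in fat, and the study used the double knockdown to ask how far their loci are shared.

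The DpnI enzyme cuts methylated GATC, so DamID measures DNA in fragments between GATC sites, and 427 of the 428 ends of the 214 regions (99.8%) fell on a GATC in the mm9 sequence. The share was 96.5% to 98.8% over the borders of the 4 LAD lists. Windows of 60 bases are shown around the ends of 3 regions. These regions are the longest with 0% coverage in the Tmem120a knockdown and 100% with both paralogs knocked down. At the start of each region the preadipocyte LAD ends, and at its end the adipocyte LAD ends. The windows are on the plus strand, with GATC in capitals. The GATC at the middle of a window is the border site, and others in the same window belong to neighbouring short fragments.
Chromosome 4 region, start, chr4:111253708-111253767: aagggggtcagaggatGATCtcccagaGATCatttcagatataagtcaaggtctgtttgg
Chromosome 4 region, end, chr4:111350240-111350299: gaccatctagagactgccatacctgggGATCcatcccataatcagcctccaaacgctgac
Chromosome 6 region, start, chr6:36530321-36530380: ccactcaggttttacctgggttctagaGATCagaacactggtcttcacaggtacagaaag
Chromosome 6 region, end, chr6:36605115-36605174: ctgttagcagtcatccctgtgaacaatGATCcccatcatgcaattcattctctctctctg
Chromosome 3 region, start, chr3:99842648-99842707: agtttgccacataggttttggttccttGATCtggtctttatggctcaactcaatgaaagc
Chromosome 3 region, end, chr3:99906465-99906524: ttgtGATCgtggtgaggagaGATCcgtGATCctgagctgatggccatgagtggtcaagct

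MicroRNA genes are short enough to lie wholly inside a region, and 5 of 1576 annotated ones did so (0.317%). Of all protein-coding genes 0.447% met a region. Each of the 5 was outside LADs in preadipocytes and the Tmem120a knockdown and fully inside them in adipocytes and the double knockdown. For a gene inside a region the preadipocyte and adipocyte states are fixed, and the rule favours the knockdown states. Of these, Mir135a-2 (chr10:91534831-91534930, mm9) and Mir146 (chr11:43187899-43187963) had mature sequences in RefSeq (GRCm38.p6). The miR-146 family is best known as a brake on inflammatory signalling. The mature forms are given to identify the 2 genes, with the seed (bases 2 to 8) in capitals, and no seed is shared among them.
mmu-miR-135a-5p: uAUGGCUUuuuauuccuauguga
mmu-miR-135a-2-3p: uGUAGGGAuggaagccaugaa
mmu-miR-146a-5p: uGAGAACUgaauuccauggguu
mmu-miR-146a-3p: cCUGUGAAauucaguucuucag
Mir135a-2 lay in a region of 115 kb that fills a gap in an adipocyte LAD (chr10:91518386-91633327, 20.3% in LADs of the Tmem120a knockdown and 100% in those of the double knockdown). Mir146 lay in a region of 55.2 kb at the edge of a LAD (chr11:43168117-43223269, 11.1% and 82.2%).

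Start sites of 42 protein-coding genes lay in the regions, and 33 of these genes had a promoter of 300 bases in RefSeq (GRCm38.p6), running from 250 bases before the RefSeq start to 50 after it. Their median GC content was 52.3%, against 56.3% over all 17492 promoters of the same length. The median ratio of observed to expected CpG was 0.201 against 0.576. GATC, which reads the same on both strands, was present in 16 of the 33 (48.5%) and in 46.9% of all promoters. TATAAA, or TTTATA on the other strand, was present in 6 (18.2%) and in 13.3% of all promoters. These counts describe letters in the windows only. Promoters of 3 genes are shown. These genes lay wholly outside LADs in preadipocytes and the Tmem120a knockdown and wholly inside in adipocytes and the double knockdown. They include the highest and the lowest CpG ratio among the genes with this complete pattern that had such a promoter. Manea had a ratio of 0.794, Pdcd1 0.190 and Ivl 0, a value that Ddi1 shared. Capitals mark GATC and TATAAA, which among the 3 were found only for Ivl. Coordinates are in GRCm38.p6.
Manea, chr4:26346603-26346902, minus strand: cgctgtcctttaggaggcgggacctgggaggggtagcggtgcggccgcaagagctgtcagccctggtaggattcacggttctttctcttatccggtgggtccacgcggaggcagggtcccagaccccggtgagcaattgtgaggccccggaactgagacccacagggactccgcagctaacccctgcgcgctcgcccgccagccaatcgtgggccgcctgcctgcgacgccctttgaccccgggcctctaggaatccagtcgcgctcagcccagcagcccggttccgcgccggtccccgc
Pdcd1, chr1:94052504-94052803, minus strand: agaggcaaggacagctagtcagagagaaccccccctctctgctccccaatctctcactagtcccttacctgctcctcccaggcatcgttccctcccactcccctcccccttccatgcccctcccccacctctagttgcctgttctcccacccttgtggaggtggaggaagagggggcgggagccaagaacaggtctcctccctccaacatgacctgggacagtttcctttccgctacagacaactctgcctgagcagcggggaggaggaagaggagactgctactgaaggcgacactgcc
Ivl, chr3:92573686-92573985, minus strand: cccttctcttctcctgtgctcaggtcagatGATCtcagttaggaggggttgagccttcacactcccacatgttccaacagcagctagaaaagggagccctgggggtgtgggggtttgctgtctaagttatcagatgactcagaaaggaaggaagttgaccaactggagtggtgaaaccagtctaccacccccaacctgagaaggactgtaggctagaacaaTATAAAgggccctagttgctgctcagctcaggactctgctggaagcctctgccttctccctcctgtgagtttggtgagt

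The first question was how complete the contrast between the knockdowns was in each region. In the Tmem120a knockdown 116 of the 214 regions met no LAD at all, 86 met 1 LAD and 12 met 2 or more. The median coverage was 0%, the upper quartile 26.9% and the highest value 49.0%. In the double knockdown coverage ran from 50.3% to 100% with a median of 89.4%, and 93 regions were covered over their full length. Over the pooled length 17.0% lay in LADs of the Tmem120a knockdown and 79.2% in LADs of the double knockdown. The contrast was complete, with 0% against 100%, in 56 regions, and 71 had under 10% against over 90%. At the other end, 49 regions had at least 1 of the 2 values within 10 points of the 50% limit, and the 2 values differed by less than 20 points in 10 regions.

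Near the limits the rule split regions with close values. The region nearest the limit for the Tmem120a knockdown was chr12:26909897-26965338 with 49.0%, and the nearest on the other side was chr8:40165523-40196144, in the gene Tusc3, with 51.0%. For the double knockdown chr7:68619800-68745075, which holds Ube2nl, had 50.3%, and chr10:108812669-108968470 fell outside with 49.7%.

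**Figure D1:**
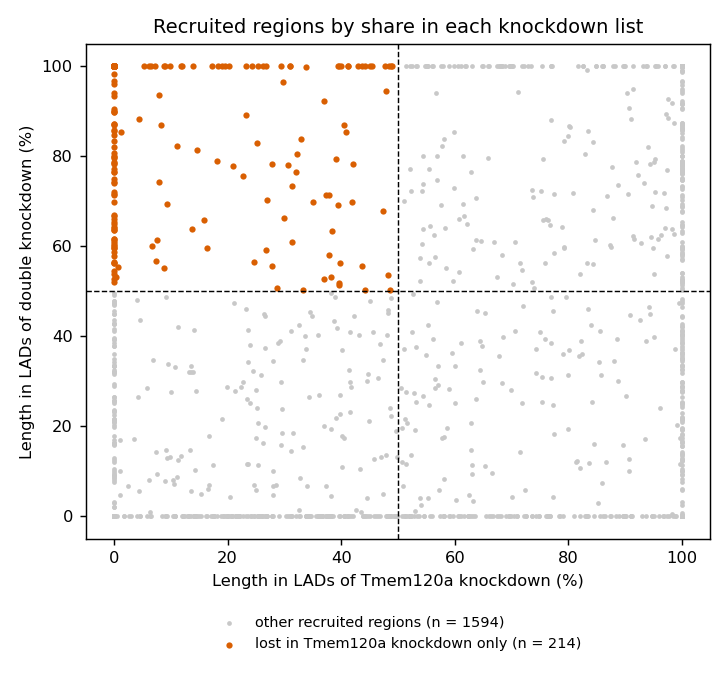
Each point is 1 of the 1808 recruited regions, placed by the percentage of its length in LADs of the Tmem120a knockdown (x axis) and of the double knockdown (y axis), with dashed lines at the 50% limits. The 214 regions in the upper left (orange) gather along the left side, where 116 have 0%, and along the top, where 93 have 100%, while 49 lie within 10 points of a limit.

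Of the 1808 recruited regions, 837 (46.3%) had under 50% in the Tmem120a knockdown and 794 (43.9%) had at least 50% in the double knockdown. The other recruited regions fell into 623 lost in both knockdowns, 391 lost in the double knockdown only (21.6%) and 580 kept in both. The same reading was made for constant LAD stretches, which are in LADs of both preadipocytes and adipocytes, within the range of lengths of the 214 regions. Of 2306 such stretches 285 (12.4%) were lost in the Tmem120a knockdown only and 372 (16.1%) in the double knockdown only. The pattern that defines the 214 regions was thus found at a like rate, 11.8% and 12.4%, among recruited regions and among stretches that did not change in adipogenesis.

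The 214 regions were short. Their lengths ran from 8.18 to 295 kb with a median of 33.6 kb and quartiles of 22.6 and 54.9 kb. The median was 47.4 kb for regions lost in both knockdowns, 46.4 kb for those lost in the double knockdown only and 35.0 kb for those kept in both. When all recruited regions were divided by length into 4 groups of 452, those lost in the Tmem120a knockdown only made up 12.4% of the shortest group, 16.8% and 11.5% of the middle groups and 6.64% of the longest. Only 15 of the 214 exceeded 100 kb and 89 were under 30 kb. By chromosome their share of recruited regions ran from 8% on chromosome 5 (8 of 100) to 21.1% on chromosome 19 (4 of 19), and the Wilson 95% interval of the former ends at 14.998%, above the 8.51% at which that of the latter begins.

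A constant LAD stretch adjoined 171 of the 214 regions (79.9%, Wilson 95% interval 74.0% to 84.7%, which covers counting error only), close to the 81.4% over all recruited regions (1472 of 1808). Of these, 75 filled a gap between 2 constant stretches and 96 lay at the edge of a LAD with a constant stretch on 1 side. The other 43 were whole adipocyte LADs with no preadipocyte LAD beside them. Filled gaps thus made up 35.0% of the regions, edges 44.9% and whole LADs 20.1%. Among regions kept in both knockdowns the shares were 64.8%, 26.9% and 8.28%, among those lost in the double knockdown only 49.6%, 35.0% and 15.3%, and among those lost in both 31.9%, 38.4% and 29.7%. These values are set side by side with no test, because the regions of a class are not replicates of a condition.

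The 3 kinds of region were of like length and lay in LADs of different size. Filled gaps had a median length of 37.9 kb and lay in adipocyte LADs of a median 1339 kb. Edges had a median of 30.5 kb and lay in LADs of 426.8 kb, and whole LADs had a median of 31.2 kb. No LAD of the Tmem120a knockdown met 32 of the 75 filled gaps, 55 of the 96 edges and 29 of the 43 whole LADs. Pooled coverage in the Tmem120a knockdown was 21.6%, 15.4% and 11.7% in these 3 groups, and in the double knockdown 77.9%, 81.4% and 77.3%.

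The 214 regions lay in 199 different adipocyte LADs. In 108 cases the region was the only recruited one in its LAD, and in 106 (49.5%) the LAD held others, against 57.9% over all recruited regions. This share was 49.3% for regions lost in both knockdowns, 62.4% for those lost in the double knockdown only and 67.2% for those kept in both. Of these 106 regions, 30 shared the LAD with another of the 214, 72 with a region kept in both knockdowns, 48 with one lost in the double knockdown only and 47 with one lost in both. For 76 of the 106 every companion belonged to another class, which is read beside the 11.8% of recruited regions that belong to this one.

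The borders of the gaps were then compared. The gap in the Tmem120a knockdown list around a region had a median length of 104 kb, and the preadipocyte gap around it a median of 129 kb. The overlap of the 2 gaps, given as the shared length over the combined length, had a median of 0.408 and was at least 0.5 for 88 regions. Only 1 region had a gap with the same ends in both lists. The Tmem120a knockdown gap was longer than the region itself in 181 cases and longer than the preadipocyte gap in 104. At the 246 inner borders, where a region meets a constant stretch and the preadipocyte LAD ends, the Tmem120a knockdown list had a border at the same base in 3 cases (1.22%), within 1 kb in 18 and within 5 kb in 62 (25.2%), with a median distance of 12.6 kb. At the 182 outer borders, where the adipocyte LAD ends, the double knockdown list had a border at the same base in 3 cases, within 1 kb in 13 and within 5 kb in 57 (31.3%), with a median distance of 12.2 kb. For regions lost in both knockdowns, lost in the double knockdown only and kept in both, the shares within 5 kb were 17.0%, 11.0% and 7.16% at inner borders in the Tmem120a knockdown list. At outer borders in the double knockdown list they were 4.93%, 7.78% and 19.0%. With the lists exchanged, regions lost in the double knockdown only had 22.7% at inner borders in the double knockdown list and 23.7% at outer borders in the Tmem120a knockdown list, and kept regions had 24.6% at the latter. These shares were not tested, and they are not independent of the rule.

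Coverage beside the regions was read in the 4 lists to see how far the contrast reached. LADs are continuous, so coverage close to a region is not independent of the rule. In the first 20 kb of the inner flank, inside the constant stretch, coverage was 99.4% for preadipocytes, 98.4% for adipocytes, 51.6% with Tmem120a knockdown and 77.8% with double knockdown. Loss in the Tmem120a knockdown therefore ran on into DNA that was in LADs before and after differentiation. Beside regions kept in both knockdowns the same 20 kb had 92.0% and 86.7% in the 2 knockdowns. Beside regions lost in the double knockdown only it had 80.9% and 45.5%, and beside regions lost in both 42.7% and 31.3%, so the low coverage in the Tmem120a knockdown was also seen there. Between 45 and 50 kb from the inner border the 2 knockdown lists had 72.2% and 69.7%.

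On the outer side LADs of the double knockdown often ran past the adipocyte LAD, as they did beside regions kept in both knockdowns. In the first 20 kb of the outer flank coverage was 3.40% for preadipocytes, 9.11% for adipocytes, 14.2% with Tmem120a knockdown and 43.2% with double knockdown. Double knockdown coverage of this flank was 57.6% beside regions kept in both knockdowns, and beside regions lost in the double knockdown only the Tmem120a knockdown had 42.6%. Over the first 100 kb outside the 214 regions the 4 lists had 17.1%, 28.1%, 27.9% and 35.3%. Of the 214 regions 190 were met by a single LAD of the double knockdown, and the longest such LAD on each region had a median length of 106 kb, above the 33.6 kb of the regions. Within the 96 edge regions, read from the inner to the outer border in steps of 5% of the length, coverage in the Tmem120a knockdown was 28.1% at the inner end, 4.17% at its lowest between 60% and 65%, and 12.5% at the outer end. Coverage in the double knockdown was 91.8% at the inner end, 99.3% between 45% and 50% and 45.5% at the outer end.

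**Figure D2:**
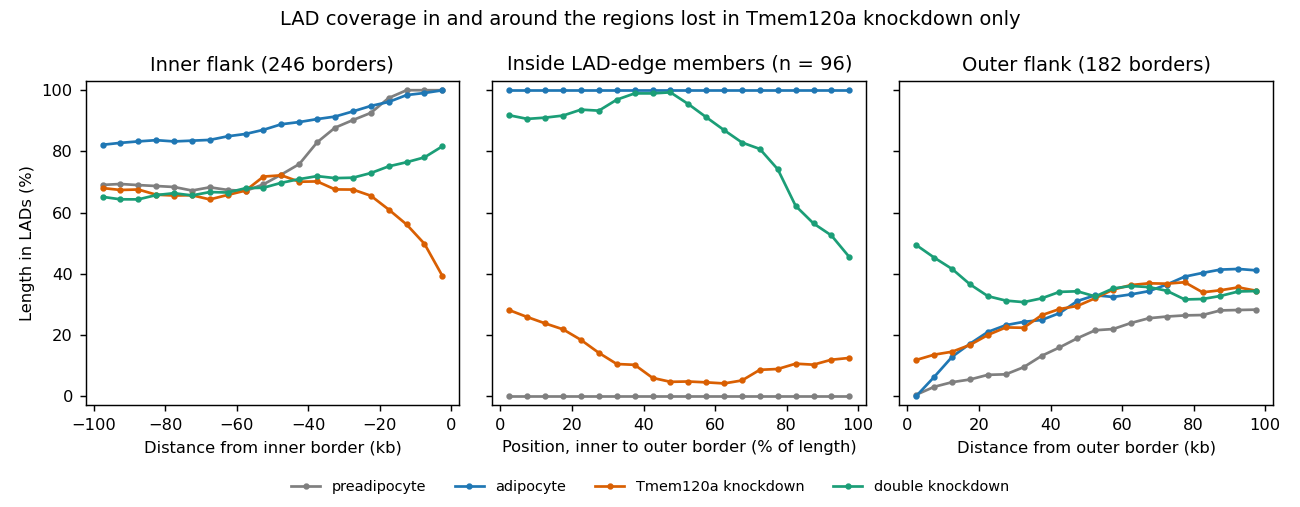
Percentage of length in LADs (y axis) in 4 lists, by distance in kb from the 246 inner borders (left), along the 96 LAD-edge regions from inner to outer border (middle) and by distance from the 182 outer borders (right), in steps of 5 kb or 5%. The Tmem120a knockdown falls to 39.3% in the last 5 kb before the inner border, and the double knockdown still has 49.4% in the first 5 kb beyond the outer border.

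The 5 longest regions showed how varied the layout was. The longest, chr9:6180892-6476340 (mm9, 295 kb), filled a gap in a LAD of 1759.6 kb and had 37.8% in LADs of the Tmem120a knockdown and 58.1% with double knockdown, each split over 3 LADs. It covers most of Pdgfd, a platelet-derived growth factor, with Ddi1 inside that gene. The next, chr3:109701278-109923599 (222 kb), was a whole adipocyte LAD within Ntng1, which encodes the axon guidance protein netrin-G1, and had 8.83% and 55.3%. The regions chr16:79548955-79754208 (205 kb, 26.9% and 70.3%) and chr15:22013110-22201506 (188 kb, 47.4% and 68.0%) filled gaps and held no protein-coding gene. The latter lay in an adipocyte LAD of 8083 kb with 14 recruited regions in all. The fifth, chr1:95826580-95971861 (145 kb, 22.6% and 75.7%), lay at a LAD edge and met 5 genes, among them Pdcd1, the T cell checkpoint receptor PD-1, and Neu4, a sialidase.

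The 3 longest regions with the complete contrast all lay at LAD edges, and the sequences at their ends are given above. The first, chr4:111253738-111350269 (96.5 kb), covers part of Agbl4, a carboxypeptidase that shortens glutamate chains on tubulin. The preadipocyte and Tmem120a knockdown gaps around it overlapped by 0.867. The second, chr6:36530351-36605144 (74.8 kb), held no protein-coding gene, and its gaps overlapped by 0.984. The third, chr3:99842678-99906494 (63.8 kb), lay within Spag17, a protein of the ciliary axoneme, and its gaps overlapped by 0.449.

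**Figure D3:**
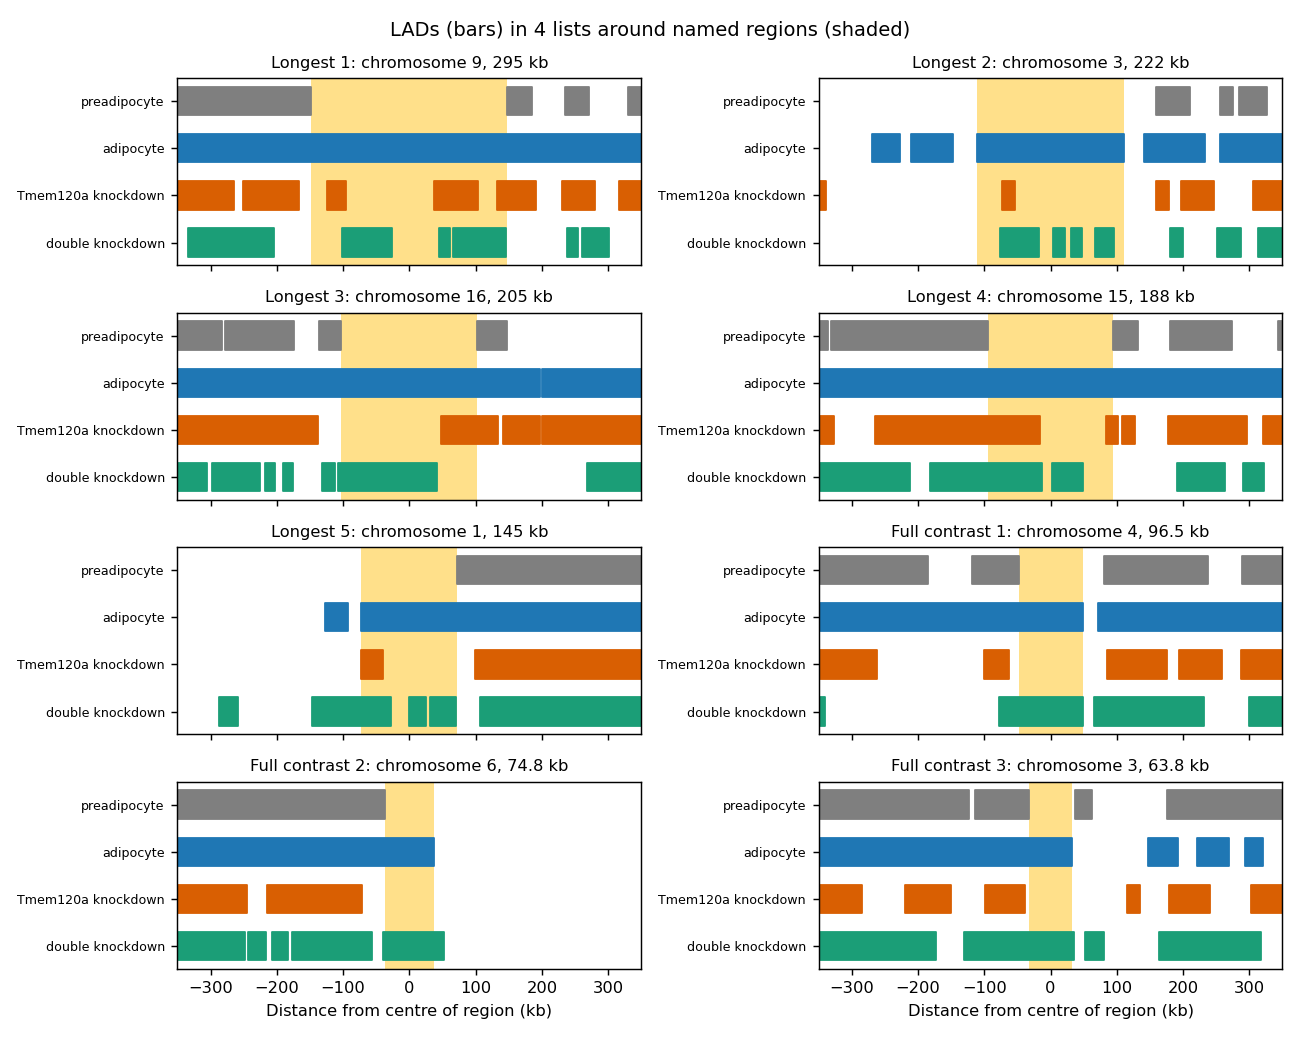
Bars show LADs in the 4 lists (rows) within 350 kb of the centre of each of 8 regions (shaded), by distance in kb. The 5 longest regions keep 8.83% to 47.4% of their length in Tmem120a knockdown LADs and 55.3% to 75.7% in double knockdown LADs, whereas the 3 with the complete contrast are empty in the first and lie under 1 continuous bar in the second.

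Of 22350 protein-coding genes on the chromosomes used, 100 met 1 of the 214 regions (0.447%), and 688 met any recruited region (3.08%). A protein-coding gene was met by 42.5% of the 214 regions and a start site by 16.8%, close to 40.8% and 14.3% over all recruited regions. The regions had 4.43 gene starts per Mb, against 2.24 in regions lost in both knockdowns, 3.26 in those lost in the double knockdown only and 3.74 in those kept in both. The 100 genes were long, with a median of 93.5 kb against 15.4 kb over all genes, and 49 exceeded 100 kb. A long gene is more likely to meet any region. For 26 of the genes the region held under 10% of the gene body, so most of the gene lay outside it. Over the 100 genes the median share of the body in LADs was 0%, 92.5%, 21.0% and 77.01% in preadipocytes, adipocytes, Tmem120a knockdown and double knockdown. Among all genes 242 (1.08%) met LADs of adipocytes and of the double knockdown and none of the Tmem120a knockdown, and 38 of these were among the 100.

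Genes are next described by role, with the share of the gene body in LADs given for preadipocytes, adipocytes, the Tmem120a knockdown and the double knockdown in that order. The gene with the longest overlap was Ntng1 (222 kb), with 0%, 81.0%, 5.52% and 34.6%. Pdgfd followed (198 kb), with 5.84%, 100%, 20.2% and 38.1%. In both genes the double knockdown held less of the body in LADs than control adipocytes did.

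The 30 genes with the longest overlap included several signalling genes. Prkcb, a protein kinase C, had 60.9%, 86.1%, 44.2% and 97.4%. Sorcs1, a sorting receptor, had 36.8%, 63.6%, 62.1% and 71.4%, so its whole body hardly differed between control and Tmem120a knockdown although its region did. Elmo1, which activates Rac, had 44.4%, 64.7%, 32.2% and 32.7%. Also met were parts of the receptor kinases Ntrk3 and Alk, the cGMP-dependent kinase Prkg1 and the receptor phosphatases Ptprj and Ptprr, with 3.89% to 23.9% of the body in a region. Ptprj was the only one of these 5 outside LADs in both preadipocytes and the Tmem120a knockdown, with 0%, 23.9%, 0% and 13.7%.

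Transporters and enzymes included 4 genes with at least 50% of the body in a region. Abcb1b, a multidrug efflux pump, lay wholly in a gap-filling region of 109 kb on chromosome 5 and had 0%, 100%, 23.6% and 75.1%. Its neighbour Abcb4, which moves phosphatidylcholine into bile, met another of the regions and had 49.98%, 100%, 46.2% and 76.5%. Hephl1, a ferroxidase, had 0%, 66.8%, 39.96% and 93.4%. Neil3, a DNA glycosylase, had 0%, 72.4%, 11.0% and 100%, more in the double knockdown than in control adipocytes, as was the case for 28 of the 100 genes.

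Other genes of the 30 were met in part. Erg, an ETS transcription factor of endothelium, had 72.3%, 65.0%, 31.9% and 60.8%. Wdr44 on the X chromosome had 31.3%, 93.1%, 0% and 26.9%. Adamtsl1, a matrix protein, had 17.2%, 99.3%, 0% and 12.7%, so it was lost over nearly all of its body in both knockdowns although 43.4 kb of it lay in 1 of the 214 regions.

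Of 17 gene lists, 5 had a gene in the regions, and the counts are read beside 0.447% of all genes. Glutamate and GABA receptors, the main excitatory and inhibitory receptors of neurons, had 4 of 49 (8.16%). Of these 49 genes 30 met an adipocyte LAD (61.2%), against 23.2% of all genes. Gabrr3, a GABA receptor of the retina, had 52.2%, 100%, 0% and 90.5% with its start site in the region. The NMDA receptor subunit Grin3a had 76.3%, 91.6%, 77.5% and 95.8%, and its region also holds Ppp3r2, a calcineurin subunit that lies inside it, with 0%, 100%, 0% and 95.1%. Gabra3 (38.3%, 15.7%, 23.6% and 30.1%) and Grik3 (77.5%, 51.02%, 13.9% and 47.8%) had only 8.29% and 9.04% of the body in a region, and over the whole body both had less in LADs of adipocytes than of preadipocytes. Of 96 genes in the potassium channel list 3 were met. Kcnip1, which encodes a protein that binds such channels, had 63.6%, 100%, 75.9% and 77.7%. The channel genes Kcnc2 (0%, 13.1%, 21.9% and 51.5%) and Kcnh5 (0%, 6.45%, 7.53% and 53.0%) had more of the body in LADs of the double knockdown than of any other list.

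Serpins of the Serpinb9 family, intracellular protease inhibitors, gave 2 of 60. Serpinb9c had 0%, 100%, 0% and 37.2%, and Serpinb9f had 0%, 100%, 0% and 100%, in separate regions on chromosome 13. Of 374 Zfp zinc finger genes Zfp606 was met (0%, 100%, 0% and 100%), and of 65 cadherins Cdh18, over 1.82% of its body. The other 12 lists had no gene in the regions. They covered muscle sarcomere and myogenic genes (62 genes), adipogenic transcription factors (23), lipid storage and adipokine genes (37), synaptic adhesion, collagens, semaphorins and plexins, the Wnt pathway, olfactory receptors (1113), vomeronasal receptors (328), cytochrome P450, solute carriers, and interleukins and interferons. No gene of the adipogenic and lipid storage lists met an adipocyte LAD, so none could meet a region. Of the 62 muscle genes 18 (29.0%) met an adipocyte LAD and 7 met any recruited region. Beside 0.447% of all genes, having none is the usual outcome for a list of that size. The study's positioned genes Myh1, Myh2, Ano5, Unc13c, Myo18b, Cpe, Dctd and Fh1 did not meet the regions either. Nor did Klf9, for which the study positioned a predicted enhancer. Myh1, Dctd and Klf9 had 0% in every list, Fh1 had 0% in adipocytes and Myo18b had 100% in preadipocytes. None of these could meet a region. Of the rest, Myh2 had 24.1%, 92.6%, 0% and 44.8%, Ano5 43.9%, 100%, 75.2% and 88.9%, and Unc13c 54.1%, 100%, 68.9% and 39.2%. Cpe had 0.278% in adipocytes and 0% in the other lists.

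The 42 genes with a start site in a region were shorter, with a median of 14.3 kb, and the medians of their shares in the 4 lists were 0%, 100%, 0% and 100%. Of these genes, 37 had over 90% of the body in LADs of adipocytes, 30 had 0% in the Tmem120a knockdown and 34 had at least 50% in the double knockdown. Another 5 had over 90% in the Tmem120a knockdown, among them Mmp20, an enamel protease, and Otol1, an inner ear collagen-like protein, each at 100%. Stc2, a secreted glycoprotein hormone, had 0%, 100%, 0% and 98.5%. Tbx20, a cardiac T-box factor, had 49.9%, 100%, 69.2% and 88.3%. Pou1f1, a pituitary transcription factor, had 0%, 10.6%, 0% and 100%.

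In 16 genes the whole body was outside, inside, outside and inside LADs in the 4 lists in order, out of 30 genes with this pattern in the genome. They were singled out after their values were seen. Besides Zfp606, Serpinb9f, Ddi1, Ube2nl and Pdcd1 they were the epidermal genes Ivl, Lce1c, Sprr2i and Casp14, the mannosidase Manea, the eosinophil-associated ribonuclease Ear11, the placental prolactin family gene Prl6a1, Satl1, and 3 gene models without a name (3830406C13Rik, 4930571K23Rik and Gm17297). Manea, whose promoter was the richest in CpG of the 3 shown, lay alone in a region of 47.3 kb (chr4:26243104-26290378) with 0% and 100%. Casp14, a caspase of keratinocytes, lay alone in a whole LAD of 46.4 kb on chromosome 10.

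**Figure D4:**
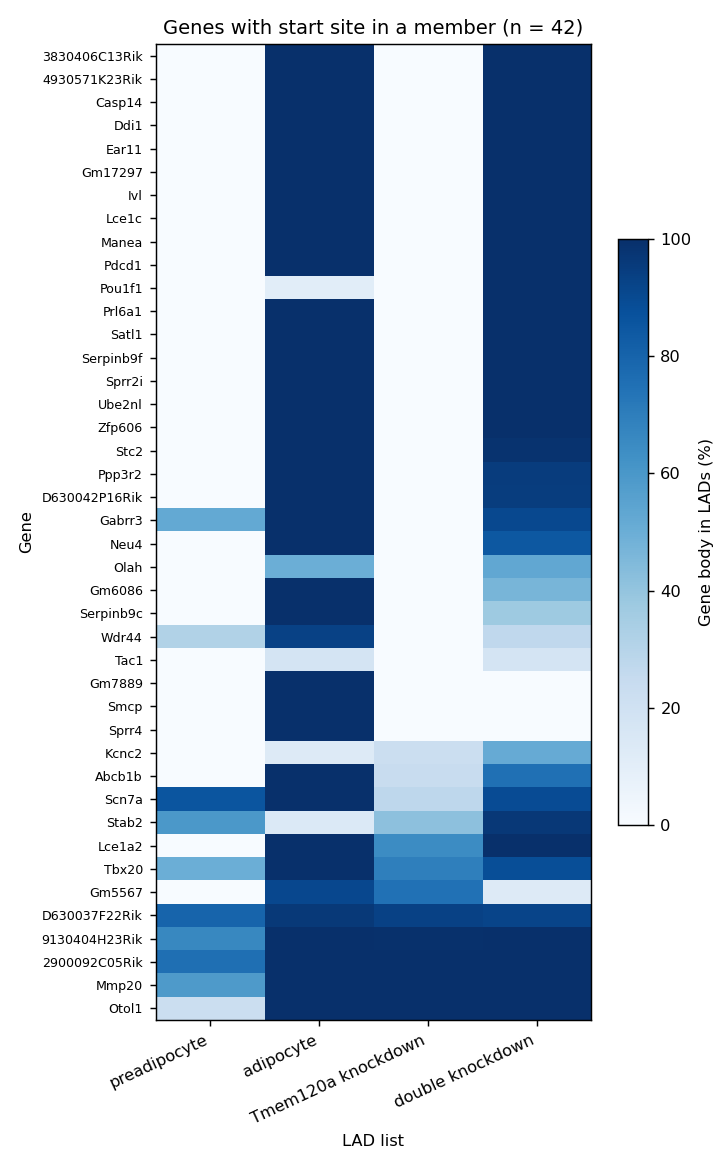
Shading gives the percentage of the gene body in LADs (colour scale, 0 to 100%) for the 42 genes (rows) with a start site in 1 of the regions, in the 4 lists (columns). In 30 genes the Tmem120a knockdown column is empty, and 34 have at least 50% in the double knockdown, while the lowest genes on the plot are filled in both.

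The epidermal differentiation complex on chromosome 3, a cluster of genes for cornified envelope proteins of skin, was followed up after Ivl, Lce1c and Sprr2i had been seen. The 38 genes read were Sprr and Lce genes with Ivl, Smcp, Kprp and Crnn (chr3:92019757-92953393), and other genes of the complex were not read. Of the 38, 15 met a LAD of preadipocytes, 33 of adipocytes, 25 of the Tmem120a knockdown and 23 of the double knockdown. The regions lost in the Tmem120a knockdown only numbered 4 and held 6 of the genes, out of 20 in any recruited region. Over all protein-coding genes 0.447% met 1 of the 214 regions, 3.08% any recruited region and 23.2% an adipocyte LAD, and nothing is read from the difference because the cluster was picked for its genes in the regions. The first, chr3:92193726-92218028 (40.9% and 85.5%), lay at the edge of a LAD of 248 kb and held Sprr2i. The next pair, chr3:92299403-92330666 (0% and 76.5%) and chr3:92353860-92393283 (0% and 66.7%), lay at the 2 edges of an adipocyte LAD of 93.9 kb that the Tmem120a knockdown list lacked entirely. Ivl, which encodes involucrin, was in the latter and had 0%, 100%, 0% and 100%, but Sprr4 and Smcp in the same pair of regions had 0%, 100%, 0% and 0%. The fourth, chr3:92464316-92484971 (45.1% and 100%), filled a gap and held Lce1c (0%, 100%, 0% and 100%) and Lce1a2 (0%, 100%, 64.7% and 100%). Further along the cluster Lce1f, Lce1g, Lce1h, Lce1i and Lce1j had the reverse state in the knockdowns, with 0%, 100%, 100% and 0%. Members of the Sprr2 and Lce1 groups are close copies within each group, as are the Serpinb9 genes, and how reads from such copies were placed is not given in the sources used here.

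**Figure D5:**
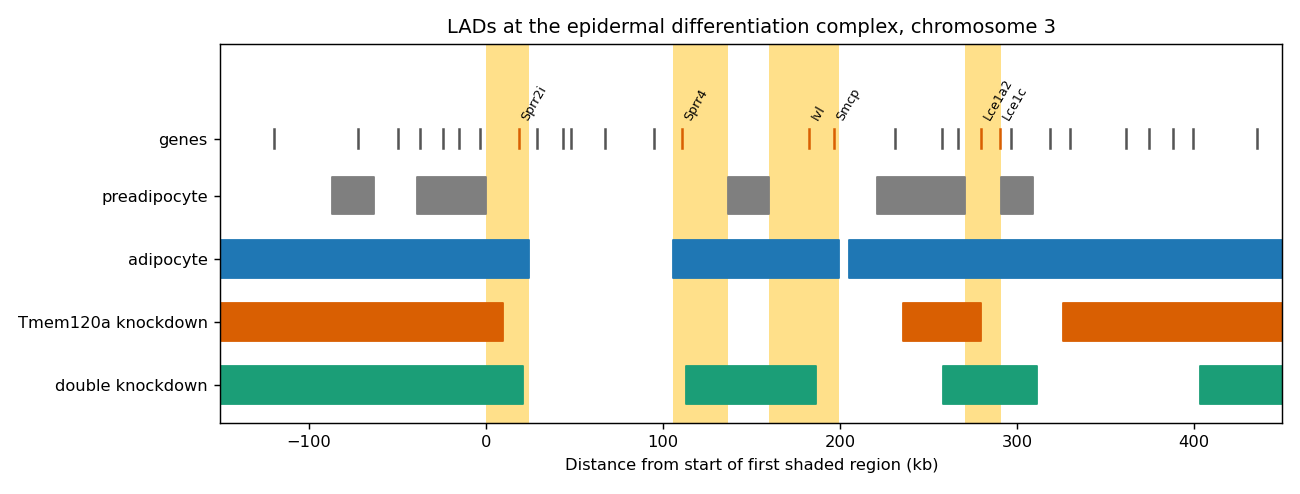
Bars show LADs in the 4 lists and ticks the genes read in the epidermal differentiation complex, by distance in kb from the start of the first of 4 shaded regions lost in the Tmem120a knockdown only. The adipocyte LAD of 93.9 kb that spans the middle pair of shaded regions has no counterpart in the Tmem120a knockdown and a shorter one in the double knockdown.

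The base composition of the 214 regions was close to that of other recruited regions. Their median GC content was 40.5%, against 38.9% in regions lost in both knockdowns, 38.8% in those lost in the double knockdown only, 39.8% in those kept in both and 41.8% over the chromosomes. CpG was found 6.68 times per kb at the median, against 5.94 in all recruited regions and 8.34 over the chromosomes. GATC, which sets how finely DamID can read a stretch, was found 2.43 times per kb, against 2.41 and 2.51. The quartiles of their GC content were 38.9% and 42.9%.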

How the data were processed

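The regions and gene lists were chosen with earlier results of these data known. The deposited lists give start and end positions alone. Per the labels and the study's methods, the authors mapped reads to mm9 (BWA in the submitters' processing notes), took log2(LaminB1-Dam/Dam) for each DpnI fragment, called LADs by DNAcopy segmentation and took differential regions from the LAD lists. Aligner settings, LAD thresholds and the full rule for differential regions are not given in the sources used here. Lists were assigned to conditions by the abbreviation in their names. The list of released regions was not used here.

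Coverage was counted by bp with Python 3.11.15, numpy 2.4.6 and pandas 2.3.3, on the reading that starts count from 0; printed starts count from 1. Wilson intervals came from scipy 1.17.1 and plots from matplotlib 3.10.9. Genes were those of the GENCODE vM1 annotation of mm9. Flanks reached 100 kb. Code was tested on simulated data with planted classes. Named regions were the 5 longest, the 3 longest with the complete contrast, and those nearest each limit. Named genes were the 30 with the longest overlap (1 is not reported here), listed genes in a region and 11 genes the study discusses where a region meets them; start-site, complete-pattern and epidermal genes were added after values were seen. No test was possible with 1 library pair a list. Alternatives covered the overlap limit, LAD and region lengths, closed gaps, chromosome X, gene assignment, border distance and flank length.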

Additional observations from a re-analysis of the deposited data

How the results depend on the processing

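No paired analysis was possible because each condition has 1 LaminB1-Dam and 1 Dam library, and leaving out a replicate was not possible for the same reason. Of 80 alternative values 67 stayed close to those reported and 13 moved. For values other than shares of regions, close meant within a factor of 1.5. This limit is wide, so the count of 67 does not show that the results were stable. With the 20% limit given next, listed genes rose from 11 to 15 and double knockdown coverage fell from 79.2% to 59.9%. These counted as close, as did the fall from 214 to 151 regions with knockdown LADs of at least 100 kb. Median GC content and GATC per kb could hardly reach this limit. With more than 20% of a region counted as in a LAD the rule chose 218 regions, of which 148 were among the 214, and their pooled coverage in the Tmem120a knockdown was 3.07% in place of 17.0%. With at least 80% it chose 184 regions, 128 of them shared, coverage was 33.1% and 17 listed genes were met in place of 11. With knockdown LADs of at least 100 kb it chose 151 regions, 99 of them shared, with coverage of 6.61%, and 87.4% touched a constant stretch in place of 79.9%. Regions of at least 30 kb numbered 125 and met 66 genes and 6 listed genes. By at least 50% of the body 36 genes were counted in place of 100, and by start site 42, of which 5 were listed. Inner borders matched by the Tmem120a knockdown list rose from 3 to 18 within 1 kb and 62 within 5 kb. Part of these shifts follows from the settings. The overlap limit bounds coverage in the Tmem120a knockdown. A wider border distance can only raise a count, and a stricter gene rule or a minimum region length can only lower it. Causes of the other shifts were not tested. The chosen regions thus depend on the overlap limit, while their number did so less. With 1 library pair a list, error between cultures is unknown.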
